A study of Homo sapiens with 6 samples.

Results

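MYC and its partners form a network of transcription factors that share a basic helix-loop-helix leucine zipper. MYC pairs with MAX, binds the hexamer CACGTG, called the E-box, and recruits coactivators to genes of growth and division. The MXD proteins and MNT compete for MAX and for the same hexamer but recruit the SIN3 corepressor with its histone deacetylases, so that they act as antagonists of MYC. MLX is a second dimerization hub, which pairs with some of the antagonists and with the glucose-sensing factors encoded by MLXIP and MLXIPL. In prostate cancer, MYC is a recurrent oncogene. Here the network was read as 10 listed genes, chosen by name, namely MYC, MYCN and MYCL, the hubs MAX and MLX, and the antagonists MXD1, MXD3, MXD4, MXI1 and MNT. Of these, 9 were found among the 35554 genes of the count table, and all 9 passed the filter on low counts that left 19711 genes. MYCN was not analysed here.

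The samples were LNCaP cells, an established androgen-dependent line from metastatic prostate carcinoma, labelled Parental (n = 3), and the Enza-resistant derivative, LNCaP-enzaR (n = 3), which was selected in enzalutamide, an inhibitor of the androgen receptor. Both lines were grown in flasks per the labels, which name no treatment of these samples, and per the study's methods the resistant cells were kept on a reduced drug concentration. Only 1 resistant line was compared, whether it is a clone is not stated, and the labels do not give the drug status at harvest. The labels call the samples biological replicates plated in triplicate flasks, and nothing states that the flasks of a line were seeded from separate cultures. The p-values therefore measure only the spread between these samples, which may be technical. The study's methods describe plates and serum starvation for cells given a ligand, and whether any of this applied here is not stated.

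Libraries held 77759122 to 98616465 counts. Libraries of a line correlated at 0.990 to 0.992 (Pearson r of log2 CPM, that is counts scaled to library size, across genes, which are not independent), against 0.921 to 0.926 between the lines. Mitochondrial transcripts took 6.72% to 7.06% of parental and 14.7% to 15.5% of LNCaP-enzaR counts. All 10 listed luminal prostate markers were read, at 6799 counts or more in every library. Past the threshold given further on, 2 rose and 5 fell, where 23.3% and 19.5% of all genes tested did. KLK3, which encodes prostate-specific antigen, fell by 3.08 on the log2 scale. Of 7 markers of other cell types, 6 stayed at 20 counts or fewer in every library, and the fibroblast collagen gene COL1A1 reached 358 to 1184 counts. The summed level of these 7 markers was 12.5 to 15.2 CPM in parental and 4.27 to 4.96 CPM in LNCaP-enzaR libraries, and its part in the results was not tested.

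The E-box was looked for in the promoters of the network itself, since MYC and its antagonists compete at this hexamer. RefSeq promoter windows (GRCh38.p14) run from 250 bases before to 50 bases after a gene's start, and 8 of the 9 analysed members had at least 1. The hexamer CACGTG, which reads the same on both strands, stood in those of MXD4, MNT and MLX. It was found in 7.26% of all 35116 windows, and in 12.2% of the 12234 tested genes that had a window. The stretches of 60 bases around these 3 matches are shown 5′ to 3′ on the strand of each gene, with the E-box in capitals. They lie at chr4:2262300-2262359 (minus strand, first base of the E-box 238 bases before the start), chr17:2401221-2401280 (minus strand, 193 bases before) and chr17:42567023-42567082 (plus strand, 50 bases before).
MXD4: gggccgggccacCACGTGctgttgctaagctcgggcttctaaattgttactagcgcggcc
MNT: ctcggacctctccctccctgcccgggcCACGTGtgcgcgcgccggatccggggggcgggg
MLX: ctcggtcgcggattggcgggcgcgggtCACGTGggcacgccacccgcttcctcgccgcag

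No window of MYCL, MAX, MXD1, MXD3 or MXI1 held CACGTG. The related hexamer CACGCG, searched on both strands, stood in the window of MXD3 and in 1 of the 3 windows of MXI1, against 11.4% of all windows and 21.5% of tested genes with a window. The 3 members with an E-box here are not those whose level changed most. Such a match is a description of these letters, and binding was not measured.

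The antagonists shifted in composition while MYC and MAX stayed within a narrow range. MXD1 and MXI1 rose in LNCaP-enzaR by 2.80-fold and 2.07-fold, and MXD3 fell by 2.61-fold. MYC, MYCL, MAX, MLX, MXD4 and MNT differed by at most 1.16-fold. In all, 3 of 9 members passed the threshold, against 42.7% of all genes tested. Passing required 1.5-fold or more with an adjusted p not above 0.05 (edgeR quasi-likelihood test, Benjamini-Hochberg adjustment over all genes tested). Of these, 2 were higher and 1 lower, where 23.3% and 19.5% of all genes were. Irrespective of fold, 7 of 9 members had an adjusted p of at most 0.05, against 66.3% of all genes. Both shares lie near those of the genes at large for so few members. The members' median absolute log2 fold change was 0.19, beside 0.57 for all genes tested.

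**Figure D1:**
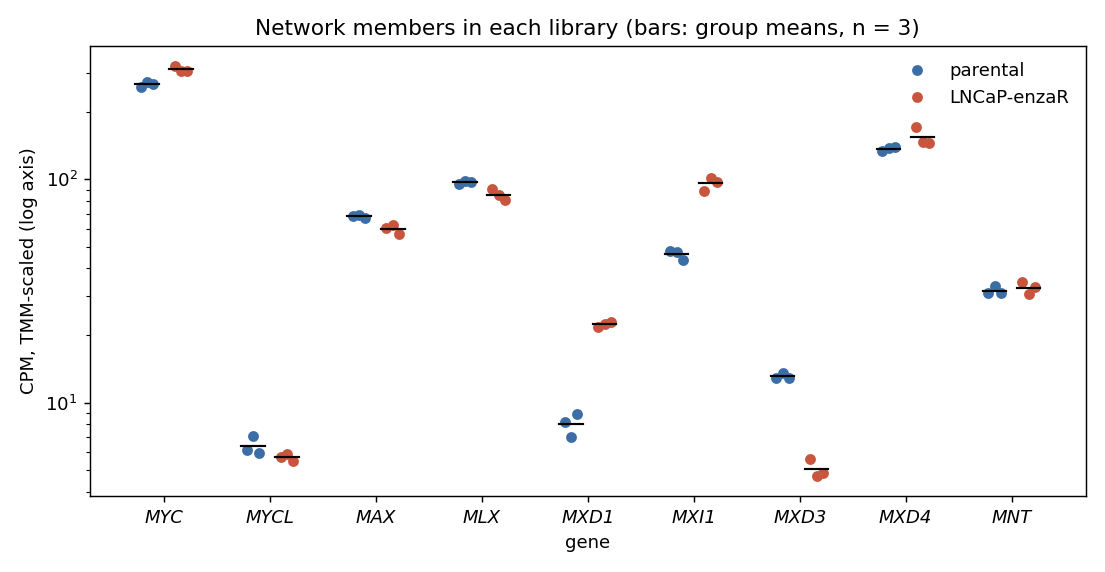
Level of each of 9 members in every library, in TMM-scaled CPM on a log axis, with points for libraries (parental in blue, LNCaP-enzaR in red) and bars for group means (n = 3). The groups lie apart for MXD1, MXI1 and MXD3, close together for MYC, MYCL, MAX, MLX and MXD4, and they overlap for MNT.

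MYC (ENSG00000136997.21, chromosome 8, 127735434 to 127742951, GRCh38) was read at 259, 274 and 268 CPM in parental replicates 1 to 3 and at 320, 306 and 305 CPM in LNCaP-enzaR replicates 1 to 3. Every resistant library lay above every parental one. The difference was small, at 0.22 on the log2 scale (SE 0.051, 95% interval 0.11 to 0.33, edgeR adjusted p = 0.00179), and the whole interval lies under the 1.5-fold limit. Averaged over both lines, only 2.33% of the genes tested had a higher CPM than MYC.

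MYCL, the paralog that is best known from lung cancer (ENSG00000116990.11, chromosome 1, 39895426 to 39902256), was low. It was read at 6.13, 7.08 and 5.94 CPM in parental and at 5.70, 5.91 and 5.48 CPM in LNCaP-enzaR libraries. Although these values do not overlap, they nearly touch, and the log2 fold change of −0.17 did not pass the test (SE 0.104, 95% interval −0.39 to 0.06, adjusted p = 0.178).

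MAX (ENSG00000125952.20, chromosome 14, 65006174 to 65102695) is the obligate partner of MYC and a partner of the MXD and MNT proteins. It was read at 68.6, 69.1 and 67.2 CPM in parental and at 60.3, 62.3 and 57.0 CPM in LNCaP-enzaR libraries. It differed by −0.19 on the log2 scale (SE 0.058, edgeR adjusted p = 0.00968). This direction is opposite to that of MYC. With upper-quartile scaling, under which the median log2 fold change over all genes shifted by 0.10, MAX was at −0.09 (adjusted p = 0.188), and without LNCaP-enzaR replicate 3 at −0.15 (adjusted p = 0.0726). In the exon annotation 16.1% of its exonic bases are shared, most of them with the opposite-strand gene FNTB, which fell by 0.67 on the log2 scale.

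MLX (ENSG00000108788.12, chromosome 17, 42567072 to 42573239) was read at 95.1, 98.7 and 96.8 CPM in parental and at 90.3, 85.2 and 80.7 CPM in LNCaP-enzaR libraries. All resistant libraries were lower, by −0.18 on the log2 scale (SE 0.058, edgeR adjusted p = 0.0130), which is well under 1.5-fold. Upper-quartile scaling gave −0.08 (adjusted p = 0.242). Leaving out parental replicate 2 or LNCaP-enzaR replicate 3 gave −0.17 and −0.14, with adjusted p = 0.0619 and 0.0897. Of its exonic bases, 18.2% are shared with the opposite-strand gene PSMC3IP, which fell by 1.19 on the log2 scale, and the part of such reads in the MLX value was not tested.

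MXD1, an antagonist that is typically induced when cells leave the cycle and differentiate (ENSG00000059728.11, chromosome 2, 69897688 to 69942945), was read at 8.17, 7.06 and 8.89 CPM in parental and at 21.8, 22.5 and 23.0 CPM in LNCaP-enzaR libraries. The lowest resistant library was far above the highest parental one. The log2 fold change was 1.48 (SE 0.089, 95% interval 1.29 to 1.68, edgeR adjusted p = 2.34e-09). Over 15 alternative analyses it ranged from 1.39 to 1.59. The gene SNRNP27, which shares 3.73% of the exonic bases of MXD1 on the same strand, was at 20.6 ± 0.776 CPM in parental and 26.8 ± 0.573 CPM in LNCaP-enzaR (SD, n = 3 each), and the part of shared reads was not tested. In bulk RNA, a change in the level per cell and a change in the share of cells that express a gene cannot be told apart.

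MXI1 (ENSG00000119950.21, chromosome 10, 110207605 to 110287365), an antagonist of the same family also known as MXD2, was read at 47.7, 47.5 and 43.8 CPM in parental and at 89.1, 101 and 97.7 CPM in LNCaP-enzaR libraries. All 3 resistant libraries were well above the parental range. The log2 fold change was 1.05 (SE 0.065, 95% interval 0.91 to 1.19, edgeR adjusted p = 3.61e-09), and 1.01 to 1.15 over the alternatives. Only 3.47% of its exonic bases are shared with another gene.

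MXD3 (ENSG00000213347.10, chromosome 5, 177301461 to 177312757) is the atypical antagonist, since it is known to be expressed in cells that replicate their DNA. It was read at 12.95, 13.7 and 12.9 CPM in parental and at 5.57, 4.71 and 4.85 CPM in LNCaP-enzaR libraries. No resistant library reached the level of any parental one. The log2 fold change was −1.39 (SE 0.093, 95% interval −1.59 to −1.19, edgeR adjusted p = 8.53e-09), and −1.46 to −1.29 over the alternatives. Genes that mark dividing cells moved the same way: all 10 of the proliferation list fell past the threshold, against 19.5% of all genes. Their median log2 fold change was −1.99 (0.01 for all genes tested), and MKI67 fell by 2.45. The part of this list in the change of MXD3 was not tested.

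The MXD3 locus is crowded. Of its exonic bases, 43.7% are shared, with the abundant opposite-strand gene PRELID1 and with the same-strand gene RAB24. PRELID1 went from 121 ± 3.27 to 98.1 ± 3.84 CPM (log2 fold change −0.30, edgeR adjusted p = 0.000256) and RAB24 from 6.72 ± 0.707 to 9.22 ± 1.25 CPM (0.46, adjusted p = 0.00290; SD, n = 3 each). How reads in the shared bases were assigned is not stated, and their part in the MXD3 value was not tested.

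MXD4 (ENSG00000123933.17, chromosome 4, 2247432 to 2262109), an antagonist that is found in quiescent and differentiated cells, was read at 134, 138 and 139 CPM in parental and at 171, 148 and 146 CPM in LNCaP-enzaR libraries. The groups did not overlap, but LNCaP-enzaR replicate 1 stood above replicates 2 and 3. The log2 fold change was 0.18 (SE 0.065, edgeR adjusted p = 0.0251). This adjusted p rose above 0.05 when any single parental library was left out, the highest being 0.105 (log2 fold change 0.16) without parental replicate 1. It also did with the replicate number as a block (0.17, adjusted p = 0.0607).

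MNT, a broadly expressed antagonist (ENSG00000070444.15, chromosome 17, 2384073 to 2401104), was read at 31.1, 33.3 and 30.9 CPM in parental and at 34.6, 30.7 and 33.0 CPM in LNCaP-enzaR libraries. These ranges overlap. The log2 fold change of 0.04 (SE 0.069, 95% interval −0.10 to 0.19, edgeR adjusted p = 0.596) did not pass the test, and its interval stays within 1.5-fold in either direction. MNT was the only one of the 9 members whose groups overlapped, and of all genes tested 70.6% did not overlap.

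**Figure D2:**
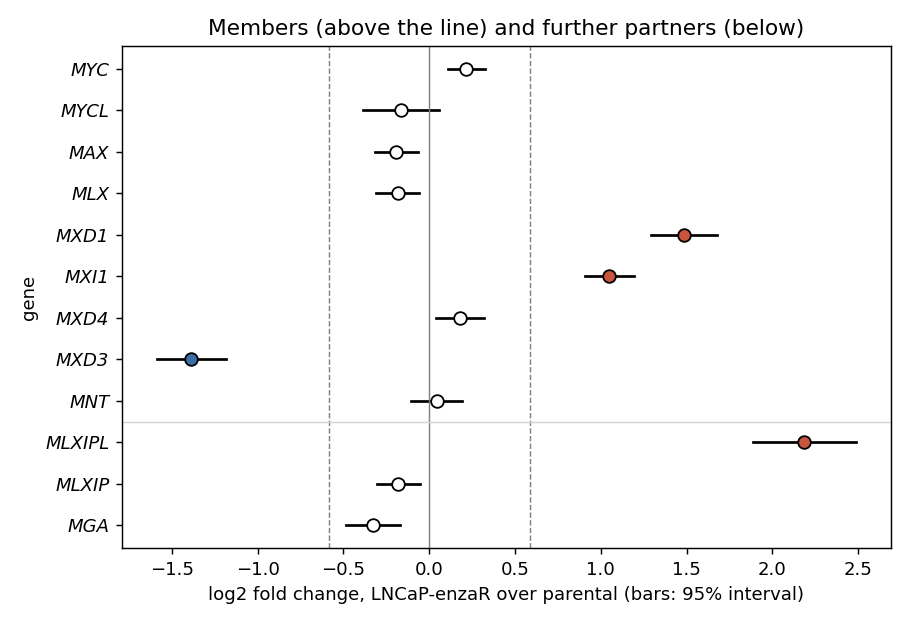
Log2 fold change, LNCaP-enzaR over parental, for 9 members and for MLXIPL, MLXIP and MGA, with 95% intervals as bars. Filled points are past the threshold (red higher, blue lower), dashed lines mark a fold of 1.5, and the intervals of MYC, MYCL, MAX, MLX, MXD4 and MNT lie between those lines.

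Levels of different genes were compared as CPM per kb of exon, with the union of all annotated exons of a gene as its length. These lengths include bases shared with other genes, at 43.7% for MXD3, 18.2% for MLX, 16.1% for MAX and 12.2% for MNT. For the other members the shared part was at most 4.55%. How far such bases lower or raise a level was not tested. In parental cells the order was MYC (43.7 ± 1.19 CPM per kb), MLX (22.8 ± 0.422), MXD4 (19.9 ± 0.384), MAX (10.9 ± 0.158), MXI1 (7.84 ± 0.379), MNT (3.65 ± 0.153), MXD3 (2.78 ± 0.087), MYCL (1.29 ± 0.123) and MXD1 (1.27 ± 0.145; SD, n = 3). MYCL and MXD1 did not differ beyond their spread, and the other neighbours in this order did not overlap.

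In LNCaP-enzaR the order was MYC (50.8 ± 1.41 CPM per kb), MXD4 (22.5 ± 2.04), MLX (20.1 ± 1.12), MXI1 (16.2 ± 1.04), MAX (9.56 ± 0.430), MNT (3.76 ± 0.226), MXD1 (3.54 ± 0.092), MYCL (1.15 ± 0.043) and MXD3 (1.06 ± 0.098; SD, n = 3). By this length, MXI1 stood below MAX in parental and above it in LNCaP-enzaR cells. MNT and MXD1 overlapped, as did MYCL and MXD3, and MXD4 and MLX came within their spread of each other. When the length of the canonical transcript was used instead, MYC stayed first in both lines, whereas MXD3, whose canonical transcript is 1067 bases against 4743 in the union, moved up to place 6 in parental and 7 in LNCaP-enzaR cells. In LNCaP-enzaR, MAX then stayed above MXI1, at 29.8 ± 1.34 against 27.7 ± 1.77 CPM per kb (SD, n = 3 each). MXD1 was then below MNT, at 4.05 ± 0.105 against 6.65 ± 0.399, and MYCL came last, at 1.62 ± 0.061. The places of MXI1, MAX, MXD1, MXD3, MNT and MYCL therefore depend on the length chosen.

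Within each library, MYC was then set against its partner and its antagonists, as a description without a test. The shared exonic bases of MAX, MXD3 and MNT bear on these ratios and on the MXD shares below, by an amount that was not tested. The level of MYC over MAX per kb was 3.87, 4.06 and 4.08 in parental and 5.44, 5.03 and 5.48 in LNCaP-enzaR libraries. The summed level of MXD1, MXD3, MXD4 and MXI1 over MAX was 2.88, 2.90 and 2.95 in parental and 4.63, 4.33 and 4.66 in LNCaP-enzaR libraries. With canonical transcript lengths, MYC over MAX was 2.04 to 2.15 and then 2.65 to 2.89, and the MXD sum over MAX 1.81 to 1.86 and then 2.44 to 2.64. The values thus depend on the length, but with either length MYC and the MXD sum both stood higher relative to MAX in every resistant library.

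The 5 antagonists together, MNT included, amounted to 0.811 ± 0.014 of the MYC level in parental and to 0.928 ± 0.003 in LNCaP-enzaR libraries (SD, n = 3), which do not overlap. With canonical transcript lengths these ratios were 0.961 and 0.996. The size of this difference therefore depends on the length chosen.

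The composition of the MXD sum differed between the lines. MXI1 made up 23.3% to 25.6% of the summed MXD level per kb in parental and 33.8% to 39.7% in LNCaP-enzaR libraries. The share of MXD1 went from 3.47% to 4.41% up to 7.72% to 8.54%, and that of MXD3 from 8.59% to 8.98% down to 2.30% to 2.64%. MXD4 remained the largest contributor, at 61.7% to 63.7% and then 49.8% to 55.8%. With canonical transcript lengths MXD3 made up 19.5% to 20.2% and then 5.83% to 6.61%. The MXI1 and MXD1 shares were again higher in every resistant library, at 20.3% to 22.2% and then 32.5% to 38.4% for MXI1, and at 2.01% to 2.57% and then 4.98% to 5.56% for MXD1. The MXD4 shares overlapped, at 55.8% to 57.7% and 50.4% to 55.9%.

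**Figure D3:**
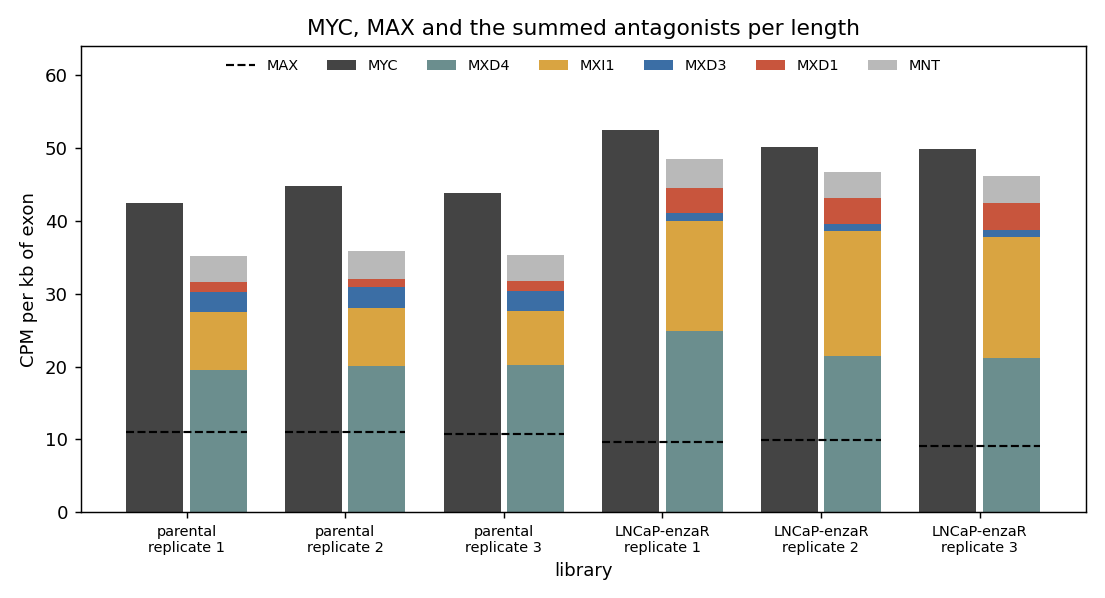
Level per length (CPM per kb of exon) in each of 6 libraries, with MYC as a dark bar, the antagonists stacked beside it and MAX as a dashed line. The stack comes closer to the MYC bar in the 3 LNCaP-enzaR libraries, with taller MXI1 and MXD1 parts and a shorter MXD3 part, while MAX lies lower.

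Of the 3 further dimerization partners, MLXIPL changed most. MLXIPL encodes ChREBP, the carbohydrate-responsive partner of MLX, and was read at 1.02, 1.13 and 1.26 CPM in parental and at 5.46, 4.91 and 5.11 CPM in LNCaP-enzaR libraries (log2 fold change 2.19, SE 0.139, edgeR adjusted p = 4.40e-09). These are 94 to 103 counts against 434 to 507. MLXIP, which encodes the related factor MondoA, went from 117 ± 2.15 to 103 ± 6.14 CPM (−0.18, adjusted p = 0.0135), and MGA, a MAX partner that can repress, from 57.1 ± 4.06 to 45.5 ± 3.52 CPM (−0.33, adjusted p = 0.00124; SD, n = 3 each). Per kb, MLXIPL still stood at 1.07 ± 0.057 in LNCaP-enzaR, under MLXIP at 7.43 ± 0.443.

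Among 6 genes listed here as targets of MLX complexes, not all of them equally well established, 5 were tested, 1 rose past the threshold and none fell. This is 20% of those tested, near the 23.3% of all genes that were higher, and 19.5% of all genes were lower. The gene that rose was TXNIP, a regulator of glucose uptake, at 118 ± 1.89 CPM in parental and 183 ± 7.76 CPM in LNCaP-enzaR cells (log2 fold change 0.64, SE 0.054, edgeR adjusted p = 1.01e-07). The other tested genes, named after their values were seen, went both ways under the fold limit. The TXNIP paralog ARRDC4 was at 0.29 and G6PC3 at 0.40 on the log2 scale, whereas KLF10 was at −0.31 and TKFC at −0.05.

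Few cofactors of MYC passed the threshold. Of 13 genes for proteins that MYC binds at chromatin, 12 had a log2 fold change under 0, with a median of −0.43 (0.01 for all genes tested), and 1 fell past the threshold, against 19.5% of all genes. This was KAT2A, the acetyltransferase GCN5, which went from 117 ± 2.96 to 75.5 ± 4.74 CPM (log2 fold change −0.63, edgeR adjusted p = 4.00e-07). The count depends on the scaling, since 4 of 13 fell past the threshold with library totals and 0 with upper-quartile scaling.

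Without parental replicate 2, without parental replicate 3 and without LNCaP-enzaR replicate 1, 2, 2 and 3 of these cofactor genes fell past the threshold, and without LNCaP-enzaR replicate 2 none did. Several lie near the fold limit, where HCFC1 and EP400, chosen after their values were seen, were at −0.58 and −0.55 on the log2 scale.

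Of 13 genes for the corepressors through which MXD and MNT act, 4 fell and none rose past the threshold. This is 30.8% of the list, against 42.7% of all genes (19.5% lower). The median log2 fold change was −0.24. HDAC2, a histone deacetylase of the SIN3 complex, went from 244 ± 5.39 to 126 ± 4.66 CPM (log2 fold change −0.95, edgeR adjusted p = 1.06e-09). NCOR1, a nuclear receptor corepressor, went from 320 ± 16.1 to 173 ± 2.50 CPM (−0.89, adjusted p = 2.84e-09), and SAP30, a SIN3 subunit, from 13.2 ± 0.626 to 4.77 ± 0.309 CPM (−1.47, adjusted p = 3.47e-09). The scaffolds SIN3A and SIN3B, chosen after their values were seen, stayed under the fold limit at −0.30 and 0.40 on the log2 scale.

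Of 17 genes for the control of MYC protein stability, 3 rose and 6 fell past the threshold. This is 52.9% of the list, near the 42.7% of all genes, and the median log2 fold change was −0.31. The kinases PLK1 and AURKA and the phosphatase inhibitor CIP2A, all known to protect MYC protein and all expressed with the cell cycle, fell by 1.96, 1.65 and 1.96 on the log2 scale (edgeR adjusted p = 3.53e-12, 2.14e-11 and 4.55e-11). The 3 genes that rose, chosen after their values were seen, were GSK3B (0.73), whose kinase marks MYC for degradation, the ligase gene STUB1 (0.62) and the phosphatase subunit gene PPP2R5A (0.77). The other genes that fell, also chosen so, were FBXW7 (−0.84 on the log2 scale), which encodes the ligase that reads the GSK3 mark, SKP2 (−1.54) and SET (−0.69). MYC protein was not measured in these files.

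Of 65 tested genes in 3 lists of genes known as MYC-induced, 31 fell and none rose past the threshold, against 19.5% lower and 23.3% higher of all genes. None rose past it in the 15 alternative analyses that kept the 1.5-fold limit. With no minimum fold, 57 were lower and 4 were higher, where 66.3% of all genes passed in either direction. The 4, chosen after their values were seen, were MYBBP1A (0.36 on the log2 scale), CAD (0.28), RRP12 (0.24) and POLR1A (0.17). These lists hold genes that other regulators of growth and division also control.

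Of 26 genes for ribosome assembly, 9 fell past the threshold, with a median log2 fold change of −0.42. NCL, which encodes the nucleolar protein nucleolin, went from 1874 ± 24.5 to 885 ± 15.9 CPM (log2 fold change −1.08, edgeR adjusted p = 1.03e-10). NOP58, a core protein of box C/D ribonucleoproteins, and UTP20, a factor of small subunit assembly, fell by 1.28 and 1.04 (adjusted p = 6.49e-10 and 8.75e-09). All calls in this list were lower, at 34.6% of it, against 19.5% of all genes lower and 42.7% called in either direction.

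Of 22 metabolic and transport genes, 11 fell past the threshold, against 19.5% of all genes, with a median of −0.60. SLC1A5, a glutamine transporter, went from 208 ± 12.1 to 4.49 ± 0.888 CPM (log2 fold change −5.54, edgeR adjusted p = 4.53e-14). TYMS, a thymidylate synthase, and LDHA, a lactate dehydrogenase subunit, fell by 2.11 and 1.40 (adjusted p = 1.19e-12 and 1.68e-11). ODC1, the first enzyme of polyamine synthesis and a textbook MYC target, was chosen after its values were seen and fell by 1.30 on the log2 scale. CAD, another such target, was the one that was higher with no minimum fold.

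Of 18 genes for translation initiation and the cell cycle, 17 were tested and 11 fell past the threshold, 64.7% of those tested against 19.5% of all genes, with a median of −1.13. CDC25A, a phosphatase that activates cyclin-dependent kinases, went from 55.2 ± 2.52 to 13.7 ± 0.986 CPM (log2 fold change −2.01, edgeR adjusted p = 1.29e-11). MCM4 and MCM7, subunits of the replicative helicase, fell by 1.55 and 1.78 (adjusted p = 6.98e-12 and 1.10e-11). As with MXD3, these genes moved with the proliferation list, and the part of that list in their change was not tested.

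Of 18 genes known as MYC-repressed, 9 rose and 5 fell past the threshold. This is 77.8% of the list, against 42.7% of all genes (23.3% higher and 19.5% lower), with a median log2 fold change of 0.34. CEBPA, a differentiation factor, went from 21.9 ± 1.38 to 89.6 ± 6.02 CPM (log2 fold change 2.03, edgeR adjusted p = 9.42e-12), and NDRG1, a stress and differentiation gene that androgen also induces, from 206 ± 14.4 to 479 ± 32.6 CPM (1.21, adjusted p = 8.02e-10). THBS1, which encodes the matrix protein thrombospondin, went the other way, from 13.8 ± 1.08 to 2.41 ± 0.487 CPM (−2.51, adjusted p = 4.92e-10). The cell cycle inhibitor genes, chosen after their values were seen, were themselves split. CDKN1A (1.36), CDKN2B (3.06) and CDKN1C (0.79) were higher and CDKN1B (−0.82) and CDKN2C (−0.82) lower on the log2 scale. CDKN2B and CDKN1C were low in parental cells, at means of 0.879 and 0.764 CPM.

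**Figure D4:**
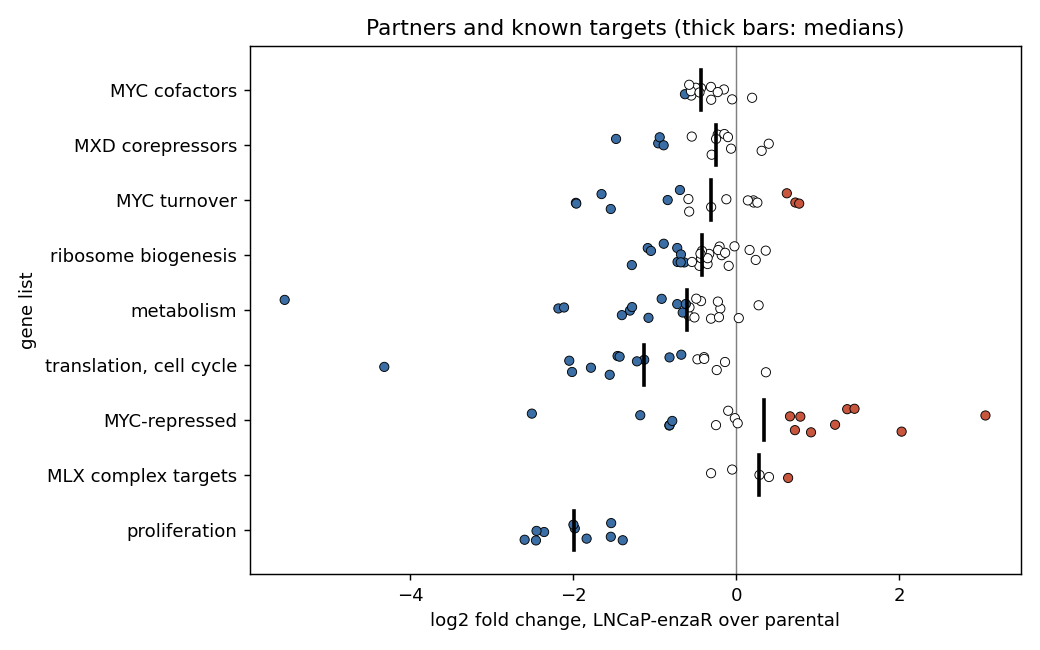
Log2 fold change, LNCaP-enzaR over parental, of every tested gene of 9 lists, with thick bars for list medians. Filled points are past the threshold (red higher, blue lower); the 3 lists of MYC-induced genes (ribosome biogenesis, metabolism, translation and cell cycle) hold blue but no red points, as does proliferation, and the MYC-repressed list holds both.

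The E-box was also counted in the promoters of these lists. It stood in 9 of 21 ribosome assembly genes with a window, in 11 of 19 metabolic genes, in 6 of 15 translation and cell cycle genes and in 3 of 5 MLX complex targets. In the MYC-repressed list it stood in 5 of 15, among MYC cofactors in 2 of 8, among turnover genes in 4 of 13, in the proliferation list in 2 of 8 and among corepressor genes in 1 of 11. The share was 12.2% over tested genes, and what the promoters otherwise share, such as base composition, was not compared. Several lists hold genes chosen as known MYC or MLX targets, and how far that choice sets these shares was not tested.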

How the data were processed

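RNA sequencing libraries of polyadenylated RNA came from 3 flasks of parental LNCaP and 3 of LNCaP-enzaR. Group and replicate number were taken from the sample titles. The authors trimmed reads with Cutadapt, aligned them to GRCh38 with STAR and a GENCODE annotation, and assigned them to genes with featureCounts. What they deposited are raw gene counts without normalization. Handling of strand and of reads with several matches is not given in the sources used here, so that genes sharing exonic bases are uncertain.

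Counts were tested with edgeR 4.0.16 (R 4.3.3): filterByExpr, TMM, robust quasi-likelihood F-test on all 6 libraries, no covariates, Benjamini-Hochberg adjustment over 19711 genes. DESeq2 1.42.0, the tool named in the study's methods along with the limits of 0.05 and 1.5-fold, was an alternative. CPM was computed from TMM-scaled library sizes. The 95% intervals use the t distribution of the fit. Precision is limited by 3 libraries a line. The test was tried on simulated counts with known changes. GENCODE v44, a later annotation of the same build, gave strand, exon lengths and shared bases, and coordinates are those of the deposited table. RefSeq promoter windows were matched by symbol.

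Members and gene lists were chosen with earlier results of these data known. Named genes are all members, the further partners, and in each list of partners or targets the 3 genes with the smallest p past the threshold at a mean of at least 5 CPM. MKI67 and KLK3 served as checks. Genes outside this rule are marked as such in the text. As alternatives, DESeq2, RLE, library totals, upper-quartile scaling, an unfiltered table, a minimum of 10 counts per library, protein-coding or non-mitochondrial genes, a replicate block, leaving out each library, other fold limits and canonical transcript lengths were tried.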

Additional observations from a re-analysis of the deposited data

How the results depend on the processing

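The calls of the 9 members held in all 15 alternatives that were fitted: MXD1, MXI1 and MXD3 stayed past the threshold and the other 6 stayed short of it, each with the same sign. With each of the 6 libraries left out in turn, 3 members were past the threshold throughout. With no minimum fold, 7 of 9 members, 3 of 3 further partners and 13074 of 19711 genes (66.3%) passed. So did 12 of 13 MYC cofactors, 11 of 13 corepressor, 15 of 17 turnover and 24 of 26 ribosome assembly genes. The other lists gave 21 of 22 metabolic, 16 of 17 translation and cell cycle and 14 of 18 MYC-repressed genes. All 10 proliferation genes and 4 of 5 MLX targets passed as well. With a fold of at least 2, 3 of 9 members, 1 of 3 further partners and 5561 of 19711 genes passed. This left 0 of 13 cofactors, 1 of 13 corepressor, 4 of 17 turnover, 3 of 26 ribosome assembly and 7 of 22 metabolic genes. The translation and cell cycle list kept 9 of 17 and the MYC-repressed list 7 of 18. All 10 proliferation genes passed, and 0 of 5 MLX targets did. The cofactor count, 1 in the report, was 4 with library totals and 0 with upper-quartile scaling, and 0 to 3 when 1 library was left out, and the cause was not tested. Upper-quartile scaling raised the share of higher calls among all genes from 54.5% to 60.9%. With canonical transcript lengths, MYC over MAX was 2.11 in parental and 2.80 in LNCaP-enzaR, and antagonists over MYC were 0.961 and 0.996, with the same direction between the lines, whereas MXI1 no longer stood above MAX in LNCaP-enzaR. The replicate numbers did not pair the libraries: deviations of same-numbered libraries correlated at −0.065 to −0.00041. With the replicate block, 8212 genes and the same number of members, 3, were past the threshold, against 8425 and 3 without it, and of those 8212 genes 8174 were shared.

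Depth did not limit the members, which held 416 to 30241 counts per library, but 3 libraries a line limit differences as small as those of MAX, MLX, MXD4 and MYCL. A single resistant line and unknown drug status at harvest cannot be told apart from resistance.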

Other observations

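Of 79 tested genes whose start lay within 250 kb of that of a member, 15 were higher and 12 lower past the threshold in LNCaP-enzaR, which is 34.2% of them, against 42.7% of all genes tested. Near MYC, none of 3 tested neighbours passed, and near MXI1, which rose, none of 2 did. MXD1 had 1 of 5 neighbours past the threshold, in the same direction as its own rise, and MXD3 had 1 of 19 higher and 3 lower.

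Near MXD4, 5 of 8 tested neighbours were higher past the threshold and none lower, where 23.3% and 19.5% of all genes were. Their median log2 fold change was 1.01, while MXD4 itself was at 0.18. Near MAX, 1 of 4 was higher and 2 were lower, and near MLX, 5 of 22 were higher and 4 lower. Near MYCL, 1 of 9 was higher and 2 were lower, and near MNT, 1 of 7 was higher and 1 lower. The contrast between MXD4 and its neighbours was seen after the values were known and was not tested.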
